A study of Mus musculus with 54 samples.

Results

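The 10 clock genes described here were Clock, Npas2, Per1, Per2, Per3, Cry1, Cry2, Nr1d1, Nr1d2 and Dbp, chosen by gene symbol from the 54232 mouse genes counted in each of 54 RNA-seq libraries. Their Ensembl identifiers are, in this order, ENSMUSG00000029238, ENSMUSG00000026077, ENSMUSG00000020893, ENSMUSG00000055866, ENSMUSG00000028957, ENSMUSG00000020038, ENSMUSG00000068742, ENSMUSG00000020889, ENSMUSG00000021775 and ENSMUSG00000059824. The genes were taken by symbol with no threshold on a measured value, and all 10 were tested in every comparison. Cmpd60, also called Merck60, is a benzamide inhibitor of the histone deacetylases HDAC1 and HDAC2, enzymes that take acetyl groups off histones. The study asked what Cmpd60 does to aged tissues and to the brain of a dementia model.

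Aged mice were male, of BL6 background, about 20 months old, single housed under a cycle of 12 h light and 12 h dark, and received daily intraperitoneal Cmpd60 at 22.5 mg/kg or vehicle (a mixture of DMSO, PEG400 and saline) for 14 days. From these mice came kidney (5 vehicle and 6 Cmpd60 libraries), brain (6 and 6) and heart (6 and 5). The second cohort was younger, 6 to 7 months old, of the same background, dose and duration, and gave brain libraries only. It held APPSWE-1349 mice, which carry a transgene for human amyloid precursor protein with the Swedish mutation (5 vehicle and 4 Cmpd60 libraries used), and control littermates (5 and 5). The promoter of the transgene was not given in the sources used here. Counts assigned to mouse App, which cannot tell the human transgene apart, overlapped between the genotypes (2035 to 2385 CPM in 9 APPSWE libraries and 1950 to 2268 CPM in 10 littermate libraries). The hour of the day at which tissue was taken, on which clock transcripts depend, was not given in the sources used here. The paper's methods give an overnight fast before killing in the part on the APPSWE cohort. The same part describes body composition and plasma measures, which the paper reports for the aged mice. Whether the aged mice were also fasted was not stated separately.

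In the mammalian clock, CLOCK or its relative NPAS2 pairs with BMAL1, the product of Arntl, and the pair switches on genes that carry E-box sequences. Among these are the Per and Cry genes, whose proteins return to the nucleus and hold back CLOCK and BMAL1, so that the loop runs about once a day. The nuclear receptors NR1D1 and NR1D2 (REV-ERB alpha and beta) are switched on by the same pair and repress Arntl and Npas2, while the ROR receptors act on the same sites in the opposite sense. DBP is a transcription factor of the clock's output that acts through D-box sequences. Arntl and Npas2 are therefore known to peak at about the opposite hour from Dbp, Nr1d1 and the Per genes. Nearly all tissues run this loop, and the suprachiasmatic nucleus of the hypothalamus sets their phase from light, while peripheral organs such as kidney and heart also follow feeding.

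The sequences by which these factors act can be seen in the members' promoters. RefSeq (build GRCm38.p6) gave a promoter for 9 of the 10 members, as the 250 bases before and the 50 bases after a transcription start. Both strands of this window were searched for the E-box CACGTG, its variant CACGTT, the D-box TTATGTAA, its variant TTATGCAA, AGGTCA, a core shared by the sites of many nuclear receptors (the RORs, NR1D1 and NR1D2 among them), and the cyclic AMP response element TGACGTCA. Of all 32817 promoters of this length, 7.15% held CACGTG, 4.69% CACGTT, 0.935% TTATGTAA, 0.744% TTATGCAA, 16.3% AGGTCA and 1.79% TGACGTCA. The promoters of 4 members of the negative limb that hold matches are shown, 5′ to 3′ on the gene's own strand, as the 250 bases that end just before the start, with the matches (or their reverse complements) in capitals. Per1 lies at chr11:69098699-69098948 on the plus strand, Per3 at chr4:151044666-151044915, Cry1 at chr10:85185055-85185304 and Nr1d1 at chr11:98775378-98775627, all 3 on the minus strand.
Per1: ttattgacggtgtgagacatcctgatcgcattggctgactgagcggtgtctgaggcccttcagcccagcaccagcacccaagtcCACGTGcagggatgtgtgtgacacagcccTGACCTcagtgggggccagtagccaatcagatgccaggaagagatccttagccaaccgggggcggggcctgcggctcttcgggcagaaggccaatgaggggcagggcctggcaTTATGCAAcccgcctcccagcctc
Per3: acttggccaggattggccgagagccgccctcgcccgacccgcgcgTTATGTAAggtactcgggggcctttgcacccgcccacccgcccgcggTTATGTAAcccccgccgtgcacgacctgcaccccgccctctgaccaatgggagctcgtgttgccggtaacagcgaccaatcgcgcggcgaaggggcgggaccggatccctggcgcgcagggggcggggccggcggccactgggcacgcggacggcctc
Cry1: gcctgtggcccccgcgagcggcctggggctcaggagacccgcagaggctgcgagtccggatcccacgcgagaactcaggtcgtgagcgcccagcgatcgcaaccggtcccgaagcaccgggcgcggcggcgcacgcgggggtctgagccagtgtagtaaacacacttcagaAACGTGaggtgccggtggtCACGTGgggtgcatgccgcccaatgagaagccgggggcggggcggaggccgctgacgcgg
Nr1d1: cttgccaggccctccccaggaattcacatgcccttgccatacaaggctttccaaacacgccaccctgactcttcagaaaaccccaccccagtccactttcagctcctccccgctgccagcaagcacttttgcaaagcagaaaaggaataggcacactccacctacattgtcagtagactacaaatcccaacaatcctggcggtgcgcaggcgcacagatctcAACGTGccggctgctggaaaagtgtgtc
Per1, at the first of its 2 listed starts, held CACGTG beginning 166 bases before the start, AGGTCA at 137 and TTATGCAA at 24. Per3 held TTATGTAA at 205 and again at 158 bases before its start. Cry1 held CACGTT at 79 and CACGTG at 60 bases before its start, and Nr1d1 held CACGTT at 28. Among the members not printed, Cry2 held CACGTT at 166 bases and Nr1d2 AGGTCA at 77 bases before the start. Clock held AGGTCA at 119 bases before the most downstream of its 3 starts, and its other starts had no match. None of the 6 motifs was found in the windows of Npas2 and Dbp, and TGACGTCA was found in none of the 9. No 2 matches overlapped. A match of letters is a description and not a measured binding site.

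Levels are given as CPM, the count of a gene relative to the scaled total of its library, with libraries scaled for composition within a tissue. The libraries held 23584609 to 57430113 counts in genes. The lowest count of any member in any library was 65, for Npas2 in a kidney, and 3 counts were worth at most 0.127 CPM, so no member was near the limit of detection. Defining markers matched the labelled tissues: the 4 tubule markers summed to 5381 to 10699 CPM in kidney and at most 5.94 CPM in heart and brain, the 4 cardiomyocyte markers to 41450 to 50848 CPM in heart, and the 5 neuronal markers to 4912 to 6803 CPM in brain. Markers of the suprachiasmatic nucleus (Vip, Avp, Prok2, Six6) summed to 10.6 to 87.1 CPM in brain, with 2 of the 4 under 1 CPM. In bulk tissue, fewer cells of a type and less RNA per cell cannot be told apart. Label conflicts touched 2 places. A treatment field of the kidney libraries gave the opposite of their titles, which were followed. By that field every kidney effect of Cmpd60 would have the opposite sign, and no such fit was run. In the second place, 1 further APPSWE brain was vehicle in its labels but compound in a table of the study. This contested library entered no comparison between groups, and its values are given on their own. In the younger cohort, under 18000 genes were detected in 5 of the 19 libraries compared (15044 to 16577), and up to 24821 in the others.

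In vehicle-treated aged mice, the 3 tissues differed most in the cryptochromes and in Npas2. Per kilobase of exon, which allows genes to be compared, the 2 REV-ERB genes and Dbp stood highest in kidney and heart. In brain they were joined by Cry2. The mean of Nr1d1 was 23.0 ± 1.70 CPM per kb in kidney (SD, n = 5), 25.1 ± 1.91 in brain (n = 6) and 39.9 ± 3.13 in heart (n = 6). Nr1d2 was at 22.4 ± 4.42, 23.8 ± 1.03 and 31.3 ± 8.35, and Dbp at 17.2 ± 12.1, 15.5 ± 2.79 and 24.4 ± 12.1 CPM per kb in the same order. In kidney these 3 overlapped in range, and the next gene in the order, Clock (9.73 ± 1.08), overlapped with Dbp but not with either REV-ERB gene. Npas2 had the lowest mean in kidney (1.75 ± 1.001), where its range overlapped that of Cry1 (2.21 ± 0.62), and in heart (1.03 ± 0.36), but stood at 5.12 ± 0.30 CPM per kb in brain, above Per2 (4.23 ± 0.77), whose range it overlapped, and above Per3 (3.15 ± 0.58), whose range it did not.

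**Figure D1:**
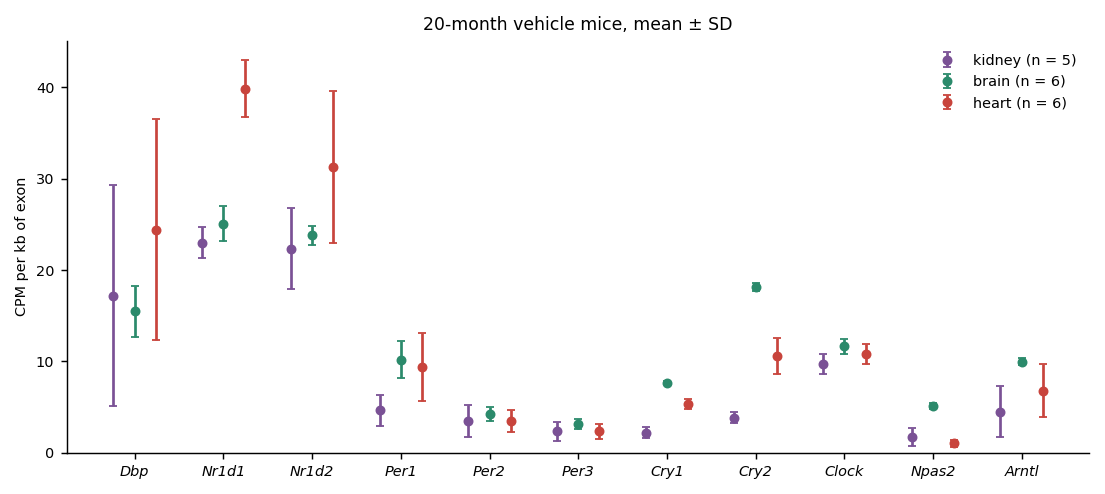
Level of the 10 clock genes and Arntl in vehicle-treated aged kidney, brain and heart, in CPM per kb of exon on a linear axis. Each point is the mean of 5 (kidney) or 6 libraries and each bar its SD. Npas2 and Cry2 are highest in brain, Nr1d1 is highest in heart, and the bars of Dbp are the longest.

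Tested between tissues (edgeR's quasi-likelihood test with Benjamini-Hochberg adjustment over 27105 genes, 34 aged libraries fitted together), Npas2 was higher in brain than in heart by 2.32 ± 0.30 on the log2 scale (SE, adjusted p = 1.29e-08) and lower in kidney than in brain (-1.56 ± 0.30, adjusted p = 2.3e-05). Cry2, a repressor of CLOCK and BMAL1, was lower in kidney than in brain by a log2 difference of -2.24 ± 0.13 (adjusted p = 1.54e-17) and lower in kidney than in heart (-1.47 ± 0.13, adjusted p = 1.82e-12). Cry1 was ordered the same way, with kidney below brain (-1.79 ± 0.15), kidney below heart (-1.26 ± 0.15) and brain above heart (0.53 ± 0.14, adjusted p = 0.000839). Per1 was lower in kidney than in brain (-1.14 ± 0.23) and heart (-1.02 ± 0.23, adjusted p = 0.000287), while brain and heart did not pass (0.12 ± 0.22, adjusted p = 0.645).

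Nr1d1 was higher in heart than in kidney (kidney minus heart -0.79 ± 0.14, adjusted p = 6.72e-06) and than in brain (brain minus heart -0.67 ± 0.13, adjusted p = 2.84e-05). Nr1d2 passed in the same 2 comparisons with smaller differences (-0.49 ± 0.14 and -0.39 ± 0.14). Per2, Per3 and Dbp passed in none of the 3 comparisons. Dbp differed by 0.15 (kidney minus brain), -0.50 (kidney minus heart) and -0.66 (brain minus heart) on the log2 scale, with standard errors of 0.35, 0.36 and 0.34. In all, 5 of 10 members were called between kidney and brain, 6 between kidney and heart and 5 between brain and heart, where 72.5%, 56.7% and 72.1% of all genes were called. The median difference over all genes was -0.24 on the log2 scale between kidney and brain and 0.44 between brain and heart, and DESeq2's size factors moved these medians to -0.37 and 0.50. The brain and heart difference of Cry1 lay 0.09 above this median, less than its standard error. The kidney and brain difference of Clock (-0.26 ± 0.10, adjusted p = 0.0243) was close to that median and was lost when kidney vehicle replicate 47 or 49 was left out. The call of Npas2 between kidney and heart (0.77 ± 0.31, adjusted p = 0.0327) was lost under limma-voom, under DESeq2's size factors and without any of 6 libraries (kidney vehicle 45, 46 or 48, heart vehicle 64, 66 or 67). Without heart vehicle replicate 67 the call of Nr1d2 between brain and heart was lost. The 34 libraries came from fewer mice, and these tests treat libraries of different tissues as independent, since the labels do not say which of them share a mouse. The fit also gave each gene 1 measure of spread for all 3 tissues, although genes such as Npas2 and Dbp varied far more in kidney than in brain. In each of the 3 tissues, Dbp was lowest in the vehicle library with the lowest number (kidney 45, brain 27, heart 62) and highest in the Cmpd60 library with the lowest number (50, 33 and 68).

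In aged kidney, no member passed the adjusted threshold of 0.05 between Cmpd60 and vehicle, where 0.3% of 20698 genes did. The largest differences were in Per2, Dbp and Npas2, and in each of them the mice within a group differed by more than the groups did. Per2 was at 11.6, 21.1, 21.2, 14.3 and 39.7 CPM in the 5 vehicle kidneys, and its lowest, median and highest values in the 6 Cmpd60 kidneys were 20.7, 37.3 and 48.8 CPM. Of the Cmpd60 kidneys, 3 thus lay above every vehicle kidney, and the ranges overlapped, as they did for all 10 members in kidney (they did not for 2.3% of all genes). Its means were 21.6 ± 10.97 (SD, n = 5) and 35.4 ± 13.0 CPM (n = 6), a log2 fold change of 0.71 ± 0.30 (SE, unadjusted p = 0.0347, adjusted p = 0.4, edgeR). Without vehicle replicate 49, whose Per2 was the highest of its group, the log2 fold change was 1.05, and without vehicle replicate 45 it was 0.55.

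Dbp in the vehicle kidneys 45 to 49 was at 17.5, 38.9, 73.5, 28.6 and 109.6 CPM. In the Cmpd60 kidneys it ran from 27.1 over a median of 63.2 to 137 CPM. The groups overlapped nearly throughout, and the fold from lowest to highest within the vehicle group was 6.27. Its log2 fold change was 0.39 ± 0.43 (adjusted p = 0.775), and leaving out 1 library at a time moved it between 0.09 (without Cmpd60 replicate 50) and 0.83 (without vehicle replicate 49).

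Npas2, the partner of BMAL1 that stands in for CLOCK, went the other way from mouse to mouse. The same 5 vehicle kidneys held 14.3, 10.98, 5.66, 11.6 and 1.72 CPM, so that the kidney with the most Dbp had the least Npas2 and the kidney with the least Dbp the most. In the Cmpd60 kidneys Npas2 ran from 3.13 over 6.79 to 10.8 CPM, inside the vehicle range, with a log2 fold change of -0.36 ± 0.43 (adjusted p = 0.794) that moved between -0.63 (without vehicle replicate 49) and -0.11 (without vehicle replicate 45). Clock itself had means of 90.9 ± 10.01 and 76.8 ± 14.9 CPM (log2 fold change -0.24 ± 0.13, adjusted p = 0.503), and 3 of the 6 Cmpd60 kidneys lay below every vehicle kidney. The other 6 members had log2 fold changes between -0.10 (Per1, Nr1d2) and 0.27 (Per3) and adjusted p of at least 0.701. Of the 10 members 6 had a positive log2 fold change, as had 50% of all genes, and their median was 0.07, beside -0.00 over all genes. Per2 alone of them had an unadjusted p under 0.05, as had 11.3% of all genes. Of 49 cell type markers tested in kidney, 1 was called, the transthyretin gene Ttr (log2 fold change -1.43, adjusted p = 0.00679). The 4 tubule markers summed to 8424 to 10699 CPM in vehicle and 5381 to 9964 CPM in Cmpd60 kidneys, and their part in the members' values was not tested.

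**Figure D2:**
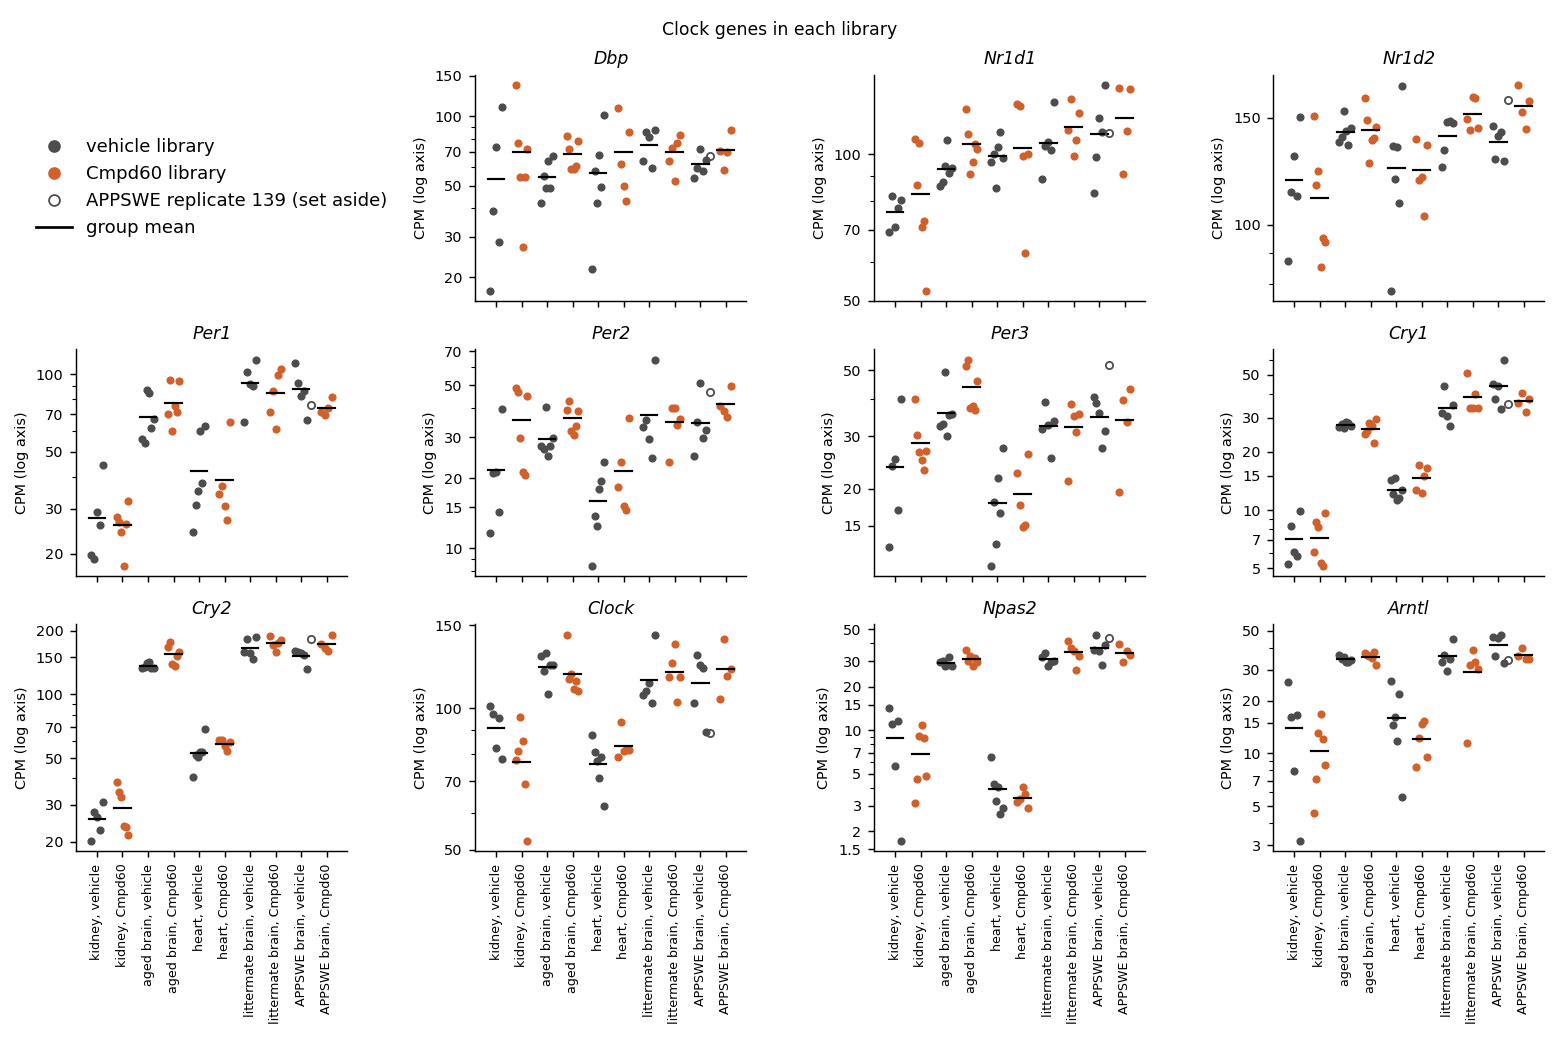
CPM on a log axis of each clock gene and Arntl in every library, by tissue and treatment; each point is 1 library, each line a group mean, and the open circle the contested APPSWE library, which is in no mean. Libraries of 1 kidney or heart group spread over several-fold for Dbp and Arntl, as they do for Npas2 in kidney, while the aged brain libraries lie close together.

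In aged heart, no member was called either, where 1.18% of 19452 genes were. Per2 ran from 8.44 over 15.9 to 23.4 CPM in the 6 vehicle hearts and was at 18.4, 23.4, 15.2, 14.6 and 36.0 CPM in the 5 Cmpd60 hearts (log2 fold change 0.43 ± 0.25, adjusted p = 0.486). A single Cmpd60 heart, replicate 72, lay above every vehicle heart for Per2, and the same heart held the most Per1 of its group (65.3 CPM, the next 36.6). Without replicate 72 the log2 fold change of Per2 was 0.16. Cry1 was at 11.3, 12.4 and 14.6 CPM (lowest, median, highest) with vehicle and at 12.7, 17.0, 12.3, 15.0 and 16.6 CPM with Cmpd60, so that 3 Cmpd60 hearts lay above every vehicle heart (0.20 ± 0.11, adjusted p = 0.435).

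Dbp ran from 21.6 over 53.6 to 102 CPM in vehicle hearts and was at 108, 62.2, 49.6, 42.7 and 85.9 CPM in Cmpd60 hearts (0.30 ± 0.30, adjusted p = 0.737). All but replicate 68 of the Cmpd60 hearts fell inside the vehicle range, and the log2 fold change was 0.08 without replicate 68 and 0.55 without vehicle replicate 67. The remaining 7 members had log2 fold changes from -0.20 (Npas2) to 0.14 (Cry2) and adjusted p of at least 0.533. No member had an unadjusted p under 0.05, where 13.5% of all genes had, and all 10 overlapped between the groups, unlike 2.69% of all genes. The median over the members was 0.11 with 7 of 10 positive, beside -0.00 and 49.6% positive over all genes. None of 46 markers was called in heart. The cardiomyocyte markers summed to 44014 to 50511 CPM with vehicle and 41450 to 50848 CPM with Cmpd60.

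Aged brain gave the smallest spread and the most members at a low unadjusted p. No member passed the adjusted threshold, which 5 genes or 0.0205% of 24438 did, but Cry2, Dbp, Per2, Per3 and Nr1d1, 5 of the 10, had an unadjusted p under 0.05, where 13.8% of all genes had. All 5 were higher with Cmpd60. Cry2 ran from 133.4 over 134.9 to 142.3 CPM in the vehicle brains and from 136.5 over 155.3 to 176.5 CPM in the Cmpd60 brains, 4 of which lay above every vehicle brain. Its log2 fold change was 0.18 ± 0.06 (unadjusted p = 0.00578, adjusted p = 0.196).

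Dbp ran from 42.0 over 52.1 to 67.1 CPM with vehicle and from 59.1 over 66.6 to 81.8 CPM with Cmpd60, and 3 Cmpd60 brains lay above the vehicle range (0.34 ± 0.11, unadjusted p = 0.00594, adjusted p = 0.197). Per2 ran from 24.8 over 27.6 to 40.3 CPM with vehicle and from 30.7 over 36.2 to 42.7 CPM with Cmpd60 (0.30 ± 0.10, adjusted p = 0.24). The highest vehicle value of Per2 belonged to replicate 29, which stood apart from the next vehicle brain at 29.7 CPM and held the most Per3 of its group as well (49.6 CPM, the next 35.6). Without replicate 29, Per2 passed the threshold, with a log2 fold change of 0.41 (adjusted p = 0.0271). Without Cmpd60 replicate 34 its log2 fold change was 0.24, and over single left-out libraries its adjusted p by edgeR reached 0.428. Leaving out 1 library gave 1 to 372 calls over all genes, beside 5 with every library. That of Per2 was the 1 call of a member among all treatment and genotype comparisons and alternatives run.

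Per3 had means of 36.0 ± 6.93 and 44.0 ± 7.77 CPM in vehicle and Cmpd60 brains (0.29 ± 0.12, adjusted p = 0.293), and Nr1d1 93.3 ± 7.37 and 104.7 ± 11.4 CPM (0.17 ± 0.07, adjusted p = 0.302). Of the activators, Clock had a log2 fold change of -0.05 ± 0.07, Npas2 0.10 ± 0.06 and Arntl 0.04 ± 0.05. The remaining members were Per1 (0.18 ± 0.12), Cry1 (-0.06 ± 0.06) and Nr1d2 (0.01 ± 0.06). The median over the members was 0.17 with 8 of 10 positive, beside 0.01 and 51.8% positive over all genes. No member was without overlap between the groups, as 0.925% of all genes were. None of 53 markers was called in aged brain. Neuronal markers summed to 4912 to 5679 CPM with vehicle and 5276 to 6650 CPM with Cmpd60, and 4 of these 5 had an unadjusted p under 0.05. Cerebellar granule cell markers summed to 303 to 533 CPM with vehicle and 166 to 381 CPM with Cmpd60, and 3 of these 4 had an unadjusted p under 0.05. The part of these markers in the members' values was not tested.

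**Figure D3:**
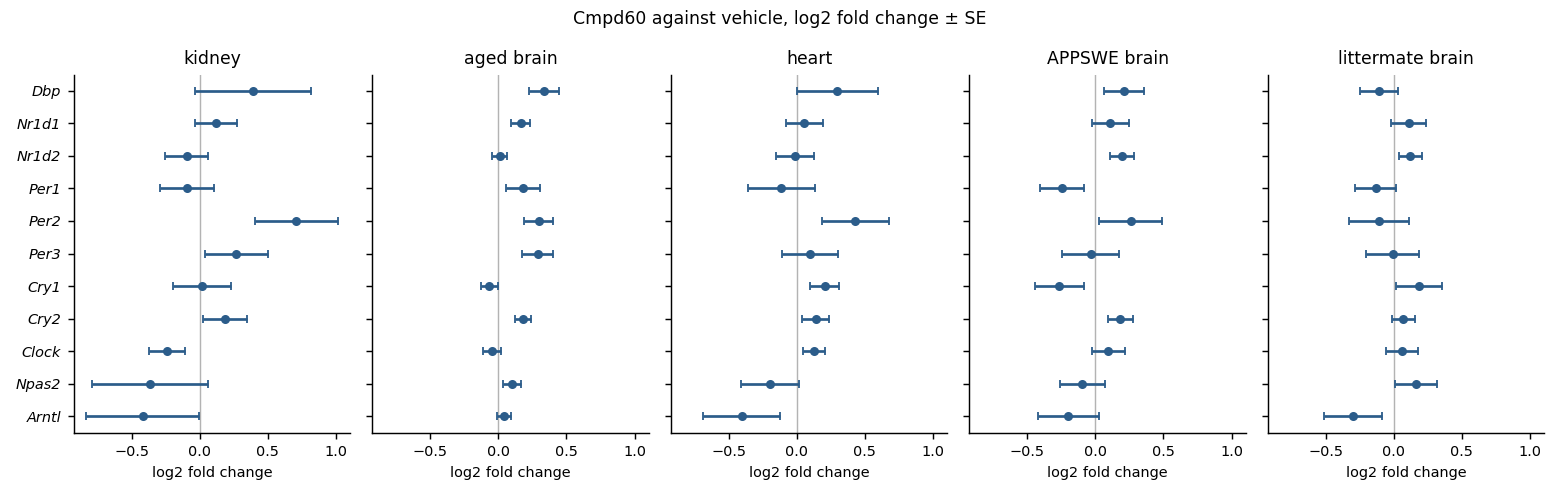
Log2 fold change of each clock gene and Arntl between Cmpd60 and vehicle in aged kidney, aged brain, aged heart, APPSWE brain and littermate brain; points are edgeR estimates and bars their standard errors. The bars are widest for Dbp, Npas2 and Arntl in kidney and short in aged brain, and none of these genes passes an adjusted p of 0.05.

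The effect of Cmpd60 was compared between tissues in the fit of all 34 aged libraries. No member differed in any of the 3 comparisons, in which 0.0885% (kidney against brain), 0.35% (kidney against heart) and 0.0517% (brain against heart) of 27105 genes were called. The smallest p belonged to Clock between kidney and heart, where the effects differed by -0.39 ± 0.14 on the log2 scale (unadjusted p = 0.0115, adjusted p = 0.264). It was the 1 member with an unadjusted p under 0.05 in these comparisons, beside 10%, 11.7% and 9.08% of all genes. For Dbp the differences of effects were between 0.03 and 0.09, with standard errors of 0.49 to 0.50. This fit gave each gene 1 dispersion (its measure of spread) for all 3 tissues, although the tissues differed in spread. For Npas2 the standard error of kidney against brain (0.40) was below that of the kidney effect alone (0.43). For Dbp that of brain against heart was 0.49, beside 0.11 and 0.30 in the separate fits. Standard errors between tissues can thus be too small or too large. Over the 5 treatment comparisons, Cry2 and Nr1d1 had a positive log2 fold change in all 5 and Dbp and Per2 in 4. Clock, Per3, Cry1 and Nr1d2 had one in 3, Npas2 in 2 and Per1 in 1. This is a description of signs that carries no test, and the 3 aged tissues came in part from the same mice. The signs in kidney rest on the titles of its libraries.

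Libraries of 1 group differed widely in several of these genes in kidney and heart. This spread was taken as the SD of log2 CPM after the group mean was removed. In kidney it was 0.97 for Npas2, 0.93 for Arntl and 0.91 for Dbp, and 98.2%, 98.0% and 97.9% of the 14428 genes with a mean of at least 1 CPM had a smaller one. The median over these genes was 0.22. In heart the widest member was Dbp at 0.67 (97.5% of 13372 genes had less), followed by Per2 at 0.53 and Per1 at 0.52, beside a median of 0.18. In aged brain, Per1 was at 0.28 (85.6% of 15424 genes had less), Per3 at 0.25 (82.2%), Dbp at 0.24 (79.8%) and Per2 at 0.22 (76.8%) beside a median of 0.14. The other 6 members lay below that median, and 9.81% of genes had less than Arntl at 0.07. Clock was near the median in each of the 3 tissues (0.25, 0.13 and 0.14 in kidney, brain and heart). From the lowest to the highest of all libraries of a tissue, Npas2 differed 8.30-fold in kidney and 1.30-fold in brain, and Dbp differed 7.84-fold in kidney, 5.02-fold in heart and 1.95-fold in brain.

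Libraries that were high in 1 clock gene were high or low in others, and the strongest negative pairs held Npas2 or Clock. In kidney, Npas2 and Dbp correlated across the 11 libraries with Pearson's r = -0.91 and Spearman's rho = -0.94 after group means were removed (100000 permutations, adjusted p = 0.00024 over 24 relations for r and 0.00102 for rho). Without the 2 libraries farthest from the median of Npas2 the r was -0.87. Dbp and Per3 correlated at r = 0.90 in kidney (rho = 0.95, adjusted p = 0.0009, 0.79 without the 2 farthest libraries) and at r = 0.94 in heart (rho = 0.93, adjusted p = 0.00024, 0.90 without them). Per1 and Per2 correlated at r = 0.91 in heart (rho = 0.92, adjusted p = 0.00024, 0.80 without them). In kidney the same pair had r = 0.74 (adjusted p = 0.033), but its rho of 0.74 did not pass (adjusted p = 0.0504) and its r without the 2 farthest libraries was 0.50, so that relation rested on those libraries.

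In heart the correlation of Npas2 with Dbp was weaker (r = -0.67, rho = -0.53) and did not pass (adjusted p = 0.0707 by permutation). In aged brain it was 0.03, and in the younger cohort -0.08. Npas2 and Nr1d1 correlated at -0.15 in kidney, 0.28 in aged brain, -0.17 in heart and 0.13 in the younger cohort. Clock and Npas2 correlated at 0.51, 0.65, 0.50 and -0.04 in the same order. Neither pair passed anywhere. Dbp went with Nr1d1 in brain: r was 0.69 in the 12 aged libraries (rho = 0.67, adjusted p = 0.0433 for r and 0.0703 for rho) and 0.68 in the 19 of the younger cohort (rho = 0.67, adjusted p = 0.00878 and 0.0103). Leaving out the 2 farthest libraries gave 0.68 and 0.71. In heart the same pair had r = 0.44 (rho = 0.61) and did not pass, and its r was 0.68 without the 2 farthest libraries. In kidney its r was 0.29, and -0.01 without them. Of the 24 relations, 7 passed by r and 5 by rho, and 5 passed by r without the 2 farthest libraries.

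Over all 45 pairs of members, given as a description, 12 had an r above 0.7 and 5 below -0.7 in kidney, 15 and 6 in heart, 6 and 0 in aged brain, and 0 and 0 in the younger cohort. The share of all gene pairs beyond 0.7 was not computed, so these counts do not tell whether the members stand out. An r beyond 0.7 also arises more readily in 11 or 12 libraries than in the 19 of the younger cohort. All 5 negative kidney pairs held Npas2, with Dbp, Per2, Per3, Per1 and Nr1d2 (-0.91 to -0.76). The 6 negative heart pairs held Clock (with Nr1d2, Cry2, Dbp and Per3) or Npas2 (with Per2 and Cry2), from -0.76 to -0.71. In aged brain the closest pair was Per2 and Per3 at 0.96, of which replicate 29 was the highest vehicle library for both.

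**Figure D4:**
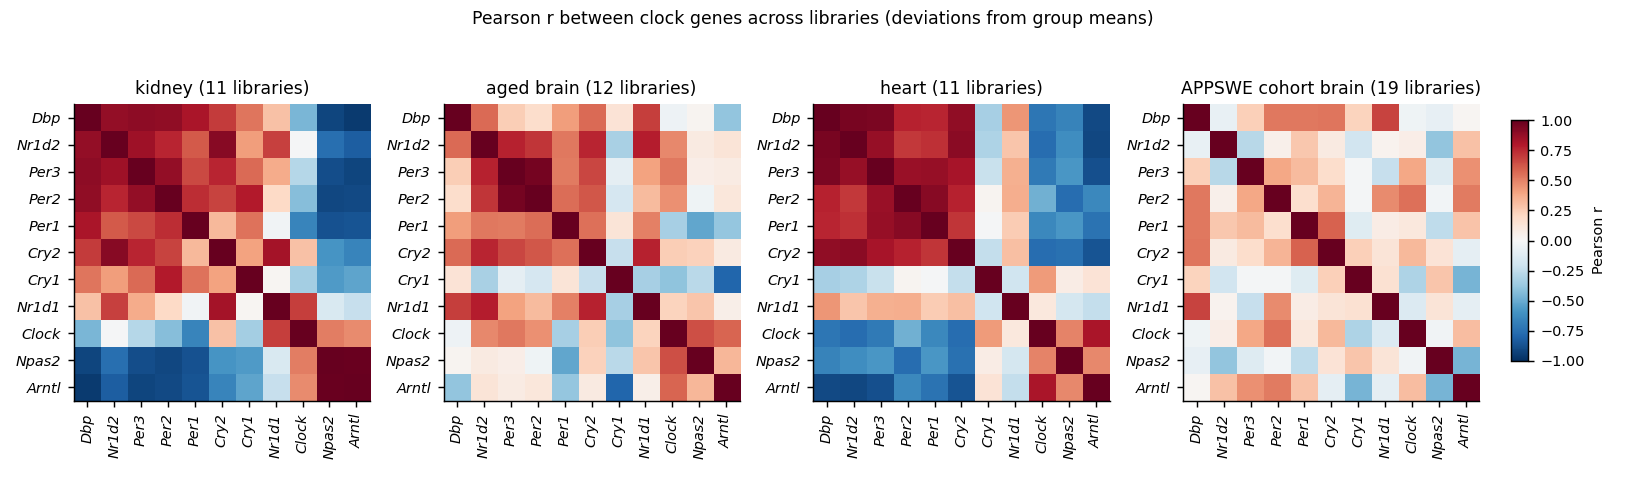
Pearson's r, on a colour scale from -1 to 1, of log2 CPM deviations from group means for each pair of the 10 clock genes and Arntl, in kidney (11 libraries), aged brain (12), heart (11) and the younger brain cohort (19). Npas2 and Arntl stand against Dbp, the Per genes and Nr1d2 in kidney, and the younger cohort shows no pair of members beyond 0.7.

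Arntl, which encodes BMAL1, followed Npas2 closely in kidney and ran against Dbp in kidney and heart. In the vehicle kidneys 45 to 49 it was at 25.7, 16.1, 7.93, 16.5 and 3.18 CPM, the same order of mice as for Npas2. Between tissues in vehicle mice it was lower in kidney than in brain (-1.15 ± 0.33, adjusted p = 0.00212, edgeR), and the other 2 comparisons did not pass. Its r was 0.99 with Npas2 and -0.96 with Dbp in kidney, and 0.48 and -0.90 in heart. In aged brain it was 0.33 and -0.39, and in the younger cohort -0.47 and 0.02. Arntl did not pass between Cmpd60 and vehicle in kidney (-0.42 ± 0.41, adjusted p = 0.746) or heart (-0.41 ± 0.28, adjusted p = 0.58). In the younger cohort its log2 fold change was -0.20 ± 0.23 in APPSWE and -0.30 ± 0.21 in littermate brains (adjusted p = 0.926 and 0.999), and it passed neither between the genotypes nor in any difference of effects. An alternative chosen after seeing the data fitted each library's Arntl level as a covariate. The log2 fold change of Per2 in kidney was then 0.63 ± 0.15 (adjusted p = 0.121) and that of Dbp 0.31 ± 0.15, beside standard errors of 0.30 and 0.43 without the covariate. Dbp in heart was then at 0.07 and Dbp in aged brain at 0.39 ± 0.11 (adjusted p = 0.177), and no member was called.

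**Figure D5:**
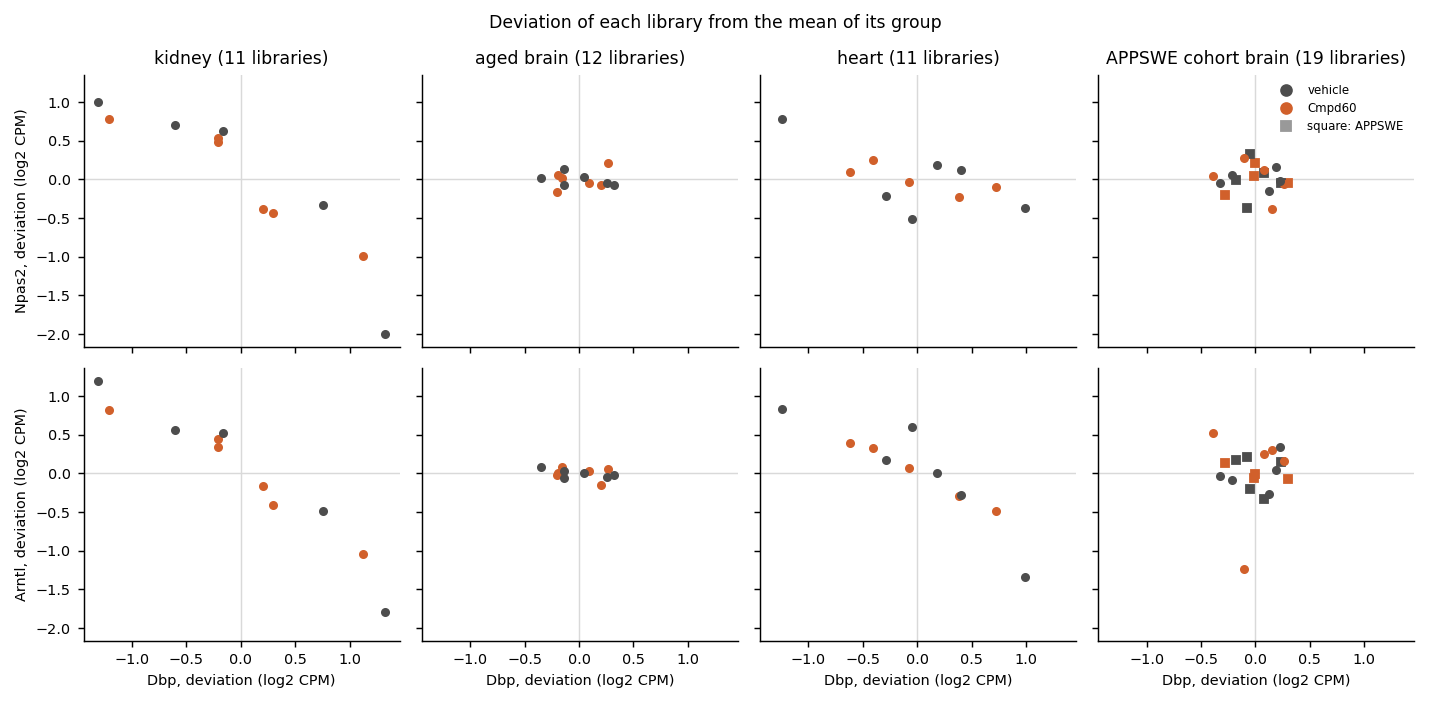
Deviation of each library from its group mean (log2 CPM) for Npas2 (top row) and Arntl (bottom row) against Dbp, in kidney, aged brain, heart and the younger cohort, where squares are APPSWE and circles littermate brains; grey is vehicle and orange Cmpd60. Kidney libraries of both treatments run along a falling line in both rows and heart libraries in the Arntl row, and aged brain libraries form a tight cloud.

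In the younger cohort no member was called in any comparison. Between Cmpd60 and vehicle in APPSWE brains, 0% of 23194 genes passed the adjusted threshold and 9.46% had an unadjusted p under 0.05. Cry2 was the member whose groups did not overlap, at 160.2, 158.8, 157.7, 153.3 and 132.7 CPM in the 5 vehicle brains and 173.8, 165.9, 161.6 and 191.9 CPM in the 4 Cmpd60 brains. For 2.31% of all genes the groups did not overlap, and the test of Cry2 did not pass (log2 fold change 0.18 ± 0.09, unadjusted p = 0.0574, adjusted p = 0.548). The contested APPSWE library, outside the fit, held 184 CPM of Cry2. Counted as vehicle, as in its labels, it would make the groups overlap, and counted as Cmpd60 it would not. Nr1d2 was at 145.2, 128.1, 139.9, 141.97 and 127.5 CPM with vehicle and 169.8, 153.0, 143.5 and 159.6 CPM with Cmpd60, 3 of these 4 above every vehicle brain (0.20 ± 0.09, unadjusted p = 0.0344, adjusted p = 0.483). The other 8 members ran from -0.27 (Cry1) to 0.26 (Per2), with adjusted p of at least 0.732. Of the members 6 of 10 were positive, beside 53.8% of all genes.

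In littermates treated with Cmpd60 or vehicle, 0% of genes were called and no member had an unadjusted p under 0.05, where 3.67% of genes had. Log2 fold changes ran from -0.13 (Per1) to 0.19 (Cry1), with adjusted p of 0.999 for all 10. Their signs were positive in 6 of 10, beside 52.8% of all genes, and none was without overlap, beside 0.509%. Between vehicle-treated APPSWE and littermate brains, where 0.00862% of genes were called, Cry1 had a log2 fold change of 0.38 ± 0.17 (unadjusted p = 0.0348, adjusted p = 0.528). Its values were 44.8, 37.4, 43.6, 33.4 and 59.9 CPM in APPSWE and 31.9, 43.9, 30.8, 27.3 and 34.9 CPM in littermate brains, and the groups overlapped. Without the APPSWE brain at 59.9 CPM the log2 fold change of Cry1 was 0.24. Dbp was at 54.2, 59.5, 72.4, 58.2 and 64.9 CPM in APPSWE and 64.2, 85.2, 81.1, 59.4 and 87.0 CPM in littermate brains (-0.29 ± 0.14, unadjusted p = 0.0489, adjusted p = 0.572). These were the 2 members with an unadjusted p under 0.05 in that comparison, beside 8.67% of all genes, and no member was without overlap, beside 0.638%.

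Between the Cmpd60-treated genotypes (0% of genes called) no member had an unadjusted p under 0.05 (1.34% of genes had) or was without overlap (0.936%), and log2 differences ran from -0.19 (Per1) to 0.26 (Per2). The test of whether the effect of Cmpd60 differed between the genotypes also called 0% of genes and no member, and no member had an unadjusted p under 0.05, beside 5.09% of genes. The largest member estimates there were Cry1 at -0.45 ± 0.25 (unadjusted p = 0.0795) and Per2 at 0.37 ± 0.32 (unadjusted p = 0.266, adjusted p = 1 for both). Without the 5 libraries with under 18000 genes detected, an alternative chosen after seeing the data, the estimate for Per2 turned to -0.18. Littermate Cmpd60 replicate 152, 1 of those 5, held 11.4 CPM of Arntl where the next lowest of its group held 30.2 CPM, and 23.5 CPM of Per2 where the next held 33.9 CPM. The contested APPSWE library held 67.03 CPM of Dbp, 43.4 of Npas2, 52.2 of Per3, 46.9 of Per2 and 34.2 of Arntl. Its Per3 lay above every library of the cohort, while the other 4 values lay inside the range of the APPSWE libraries.

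Around the members, 22 other genes of the clock were examined, among them the activators Arntl and Arntl2, the receptors Rora and Rorb, the DBP relatives Tef and Hlf, the repressors Nfil3, Bhlhe40, Bhlhe41 and Ciart, and the kinases that act on PER proteins. None of these 22 was called by edgeR in a treatment or genotype comparison. At an unadjusted p under 0.05 stood 2 in kidney, 6 in aged brain, 4 in heart, 3 in APPSWE brains and 1 in littermates, beside 11.3%, 13.8%, 13.5%, 9.46% and 3.67% of all genes. DESeq2 called 2 of the 22, both in aged brain, Tef (log2 fold change 0.23, adjusted p = 0.0304) and Rora (-0.28, adjusted p = 0.0217), and limma-voom called none. Over all genes, the alternatives that kept every library gave 0 to 321 calls in aged brain, where the main fit gave 5.

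Between tissues 17 of the 22 were called for kidney against brain (5 higher and 12 lower in kidney), 18 for kidney against heart (9 higher and 9 lower) and 16 for brain against heart (10 higher and 6 lower), beside 72.5%, 56.7% and 72.1% of all genes. Rorb, a ROR receptor, was lower in kidney than in brain by -6.37 on the log2 scale and higher in brain than in heart by 4.17. Bhlhe41 and Ciart, both repressors of the loop, were lower in kidney than in heart by -3.21 and -2.34. Nampt, whose product makes a precursor of NAD, the molecule that sirtuins use, was lower in brain than in heart by -2.88.

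Clock genes also answer to hormones and nerve activity, and 2 lists of such genes were read beside them. Of 10 genes induced by glucocorticoids, 2 were called in any treatment or genotype comparison, the metallothionein genes Mt1 (0.58) and Mt2 (1.13, adjusted p = 0.000368) in heart, both higher with Cmpd60, where 1.18% of all genes were called. Of 10 genes induced by neuronal activity or growth signals, none was called by edgeR in any treatment or genotype comparison. In aged brain all 10 had a positive log2 fold change with a median of 0.31 and 5 had an unadjusted p under 0.05, beside 51.8% and 13.8% of all genes. In APPSWE brains 9 of the 10 were negative with a median of -0.54 and 4 had an unadjusted p under 0.05, where 53.8% of all genes were positive and 9.46% had such a p. How these lists bear on the members was not tested.

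The genes outside the 10 whose deviations were most like those of Dbp and Npas2 were listed as a description. In kidney, over 11 libraries, they were Rufy4 (0.95), Usp2 (0.93), Fahd2a (0.93), Nek8 (0.92) and Txn2 (0.92) for Dbp. For Npas2 they were Arntl (0.99), Plod2 (0.96), Man1c1 (0.95) and 2 genes without a symbol, ENSMUSG00000100153 and ENSMUSG00000097762 (both 0.96). In aged brain Usp2 was nearest to Dbp (0.92), followed by Kash5 (0.88), 2810001G20Rik (0.86), Rbfox3 (0.85) and Zfp184 (0.84). Usp2, a deubiquitinase from the list of other clock genes, was thus the gene outside the members found in the Dbp lists of both tissues. Rbfox3 was also among the neuronal markers. In heart, Dbp was closest to Ints12 (0.97), Angptl2 (0.96), Jmjd8 (0.96), Ciart (0.94) and Kcnj5 (0.93).

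Npas2 in heart was closest to Nol4l (0.93), Plcd1 (0.91), Sox6, Eya2 and Rnf41 (each 0.90), and in aged brain to Cyfip1 (0.94), Slc25a23 (0.92), Lratd1 (0.90), Shroom2 and Zhx1 (each 0.89). Neither list held Arntl. In the younger cohort the nearest genes were at lower r, with Ccdc106 (0.72), Septin9 (0.71), Ier5 (0.71), Pacsin1 (0.70) and Wnt4 (0.70) for Dbp and Slc23a2 (0.73), Zfc3h1 (0.72), Usp13 (0.69), Pdxk (0.69) and Smim14 (0.68) for Npas2.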

How the data were processed

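Whole-tissue polyadenylated RNA was sequenced on a NovaSeq from directional libraries. The deposited values are whole-number counts per Ensembl gene that the authors made with Trimmomatic 0.32, HISAT2 2.1.0 and HTSeq 0.11.0 (submitters' processing notes), the last with its default, strand-aware setting. The genome build was not given in the sources used here. Each file ended with 5 summary lines (no feature, ambiguous and the like), worth 15.4% to 22.1% of its reads, which were left out. Of 54232 identifiers 32651 had a symbol.

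A gene was tested where 3 or more of the fitted libraries held over 2 of its counts, with edgeR 4.0.16 (TMM scaling, quasi-likelihood test, R 4.3.3) and Benjamini-Hochberg adjustment, each tissue on its own, the younger cohort in 1 fit of 4 groups, and tissues against each other in 1 fit of 34 aged libraries. The authors' own test was limma-voom, run here as an alternative (limma 3.58.1), as were DESeq2 1.42.0, its size factors, other filters on low counts and leaving out each library in turn. Libraries were taken as separate mice, although the aged mice were fewer than the 34 aged libraries; which tissues share a mouse was not given in the labels. P-values measure the spread between these libraries. Exon lengths came from GENCODE vM1 and promoters from RefSeq. The edgeR test was tried on simulated counts laid out as the kidney, aged brain, heart and APPSWE treatment comparisons. The other steps were not simulated. The APPSWE library with contested labels was left out of the cohort fit.

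The rule named the 10 members and Arntl in every comparison (members that did not pass are in part given by their range), of the other lists the genes that passed, and for likeness the 5 genes with the highest r. Some genes of the list of other clock genes are not reported here. Other genes were named after their values were seen. The members were taken by symbol, but they and the lists were chosen with earlier results of these data known.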

Additional observations from a re-analysis of the deposited data

Results flagged for a closer look

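In 8 of 110 sets of 1 gene in 1 group of 4 to 6 libraries, the highest or the lowest library stood apart from the rest by Dixon's criterion, where chance gives about 1 in 20.

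Of these, 3 concerned Clock, each with 1 library above its group: replicate 33 of the Cmpd60 aged brains at 143 CPM (next 118), replicate 69 of the Cmpd60 hearts at 93.7 CPM (next 81.7) and 1 of the vehicle littermate brains at 143 CPM (next 113). That littermate brain also held 64.3 CPM of Per2, where the next library of its group held 35.4, and of the 19 libraries compared it had the fewest genes detected (15044). In the vehicle aged brains, replicate 29 stood above its group for Per2 (40.3 CPM, next 29.7) and for Per3 (49.6 CPM, next 35.6). In the Cmpd60 hearts, replicate 72 held 65.3 CPM of Per1 (next 36.6). The 1 low library was among the vehicle APPSWE brains, with 133 CPM of Cry2 (next 153). What set these libraries apart was not tested.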

How the results depend on the processing

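No paired analysis was possible because each library has a replicate number of its own and the groups share none, and the labels do not tie libraries of different tissues to a mouse. The number of members called was 0 in every treatment and genotype comparison and difference of effects under all alternatives, except that leaving out 1 library in aged brain gave 0 to 1 (Per2, without vehicle replicate 29). Of 121 values of the members and Arntl over 3473 alternatives, 3471 kept their side of the threshold (182 of them with a change of sign in a value smaller than its standard error), 1 gained the call and 1 turned: Per2 in the interaction of genotype and Cmpd60, from 0.37 to -0.18 without the 5 libraries with under 18000 genes detected. Of the other clock genes, Arntl2, Tef and Rora were called in aged brain without vehicle replicate 29, and Nfil3 in heart with the Arntl covariate (0.53). Between tissues, 1260 of 1287 alternatives for the members and Arntl kept side, 11 lost and 16 gained a call, and Per3 between kidney and brain was called under limma-voom, DESeq2 and its size factors. The cause of these changes was not tested.

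Calls over all genes moved more. In kidney 62 became 63 to 552 under other settings and 20 to 131 with 1 library left out, in aged brain 5 became 0 to 321 and 1 to 372, and in heart 229 became 116 to 666 and 36 to 247. For the effects of Cmpd60, 24 (kidney against brain), 95 (kidney against heart) and 14 (brain against heart) became 26 to 184, 60 to 421 and 13 to 150, and 15 to 94, 59 to 180 and 1 to 36 with 1 library left out. In the younger cohort, 2 for vehicle genotypes became 2 to 20 (1 to 4 with 1 library left out), and counts of 0 by edgeR became at most 16 for treatment in APPSWE mice and at most 5 elsewhere. Every member had at least 65 counts in each library. Where the contested APPSWE library belongs was not settled, and either assignment called no member.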
